A study of Mus musculus with 6 samples.

Results

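Tcf7, Klf2, S1pr1 and Actn1 are 4 genes that mark quiescent naive and memory T cells, and they were followed here by their gene symbols among the 854 genes of the deposited table. Tcf7 encodes TCF-1, a DNA-binding factor of naive and self-renewing memory T cells. Klf2 encodes a zinc-finger factor that holds T cells in quiescence and drives transcription of S1pr1. S1pr1 encodes the receptor for sphingosine-1-phosphate, the lipid gradient along which T cells leave lymph nodes. Actn1 encodes alpha-actinin-1, which bundles actin and ties it to integrins, and its RNA is used as a marker of naive CD8 T cells. In resting cells the factor FOXO1 supports Klf2, and antigen receptor signalling through PI3K and AKT lowers this set as cells become effectors.

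RNA came from OT-I cells, CD8 T cells with a transgenic antigen receptor for an ovalbumin peptide, enriched as naive cells from mouse spleen and lymph nodes. One group was wild-type (WT). In the other (cKO) the Themis gene, whose T-lineage product acts below the antigen receptor, was conditionally knocked out. The cells of both groups were OT-I and were kept for 3 days in IL-2 at 1 µg/ml, with 3 libraries per genotype. The Cre driver, the age of the mice and whether replicates came from separate animals or cultures are not stated in the labels, so a p-value here speaks of the spread among libraries alone, and that spread may be technical.

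Over the 854 genes the deposited counts summed to between 946766 and 1054442 in the WT libraries and to between 424605 and 437437 in the cKO libraries. These are sums over a selected table, and the sequencing depths are unknown here. No gene of the table had a log2 ratio of mean counts (cKO over WT) between -0.94 and 1.06, so a member is in the table because it differed, and its test is not independent evidence. Themis checked the labels, with 5521, 5784 and 4964 scaled counts in WT and 977, 1227 and 1215 in cKO, 4.76-fold lower. None of the 10 listed CD8 T cell identity genes is in the table, so the labelled cell type could not be checked against them.

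Promoter windows from RefSeq (GRCm38.p6, 250 bases before to 50 bases after an annotated start) matched 3 of the 4 genes, Tcf7 with 2 starts and Klf2 and Actn1 with 1 each. Both Tcf7 windows lie wholly inside the annotated gene, and the first of them is not shown. The stretches below are shown because the genes rose together, and they leave out annotated untranslated exons. Capitals mark matches to CACCC, a core of sites bound by KLF factors (also as its reverse complement GGGTG), and to the MEF2 consensus.
Klf2, chr8:72318812-72319032, plus strand: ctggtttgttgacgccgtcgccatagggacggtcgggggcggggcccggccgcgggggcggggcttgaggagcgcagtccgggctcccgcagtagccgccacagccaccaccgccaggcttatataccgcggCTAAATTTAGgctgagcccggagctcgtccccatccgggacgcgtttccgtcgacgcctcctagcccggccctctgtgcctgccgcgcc
Tcf7, second start, chr11:52282596-52282711, minus strand: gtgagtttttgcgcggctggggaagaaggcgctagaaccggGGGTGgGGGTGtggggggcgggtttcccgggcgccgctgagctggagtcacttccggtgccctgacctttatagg
Actn1, chr12:80260421-80260613, minus strand: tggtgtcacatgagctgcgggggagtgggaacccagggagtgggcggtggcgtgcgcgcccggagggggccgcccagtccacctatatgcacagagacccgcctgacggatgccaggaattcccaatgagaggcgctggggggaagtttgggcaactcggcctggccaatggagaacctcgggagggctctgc

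The Klf2 window held 1 match to the MEF2 consensus, beginning 118 bases before the annotated start, and 0.557% of all 32851 windows of this length held one. That motif was added after the sequences were seen. CACCC or its reverse complement was in 57.5% of windows, among them both Tcf7 windows (2 matches each) and the Klf2 window (1 match, 19 bases before the start and outside the stretch shown). The Tcf7 matches lie within the annotated gene (52246527 to 52283383), not upstream of it. The FOXO motif GTAAACA was in 3.65% of windows and in the second Tcf7 window, where it began 1 base after the start. The TCF/LEF motif CTTTGA (16% of windows) was not in the windows of these 3 genes. All motifs were sought on both strands, no 2 kinds of match overlapped in the windows of these genes, and a match is a description of letters, not a bound site.

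Tcf7, Klf2, S1pr1 and Actn1 were each higher in every cKO library than in every WT library. The rise was 3.68-fold for S1pr1, 2.88-fold for Tcf7, 2.34-fold for Actn1 and 2.22-fold for Klf2. All 4 passed an adjusted p of 0.05 (edgeR quasi-likelihood test, Benjamini-Hochberg over the 794 genes tested), but 100% of the tested genes did, 24.2% as higher in cKO and 75.8% as lower. Every cKO library stood above every WT library for 23.8% of the tested genes. The median log2 fold change was 1.38 over the 4 genes, 1.45 over the 192 genes higher in cKO and -1.34 over all 794. In bulk RNA, fewer cells of a type and less RNA per cell cannot be told apart.

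Among the transcription factors, Tcf7 (Gene ID 21414, chromosome 11, 52246527 to 52283383 of GRCm38.p6, minus strand) had 4646, 5570 and 3569 scaled counts in WT replicates 1 to 3. In cKO replicates 1 to 3 it had 12749, 13090 and 13920. The lowest cKO library was 2.29-fold above the highest WT library, and the WT libraries were spread more widely than the cKO libraries (coefficient of variation 21.8% against 4.54%). Its log2 fold change was 1.53 (standard error 0.14, edgeR adjusted p = 3.5e-06).

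Klf2 (Gene ID 16598, chromosome 8, 72319062 to 72321654, plus strand), the quiescence factor, had 2070, 2393 and 1381 scaled counts in WT. In cKO it had 4120, 4556 and 4280, a log2 fold change of 1.15 (standard error 0.17, edgeR adjusted p = 0.000116). The groups did not overlap, with a gap of 1.72-fold between the highest WT and the lowest cKO library, the narrowest gap of the 4 genes. Ranked by log2 fold change among the 192 higher genes, Klf2 was at 167, close to the table's empty interval.

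S1pr1 (Gene ID 13609, chromosome 3, 115710433 to 115715055, minus strand), the egress receptor, had 1270, 1388 and 806 scaled counts in WT. In cKO it had 3956, 4012 and 4771, a log2 fold change of 1.88 (standard error 0.18, edgeR adjusted p = 6.4e-06). The gap between the groups was 2.85-fold, the widest of the 4 genes, and S1pr1 ranked 45 of the 192 higher genes where Tcf7 ranked 85.

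Actn1 (Gene ID 109711, chromosome 12, 80167542 to 80260420, minus strand), the actin cross-linker, had 1211, 1269 and 972 scaled counts in WT. In cKO it had 2766, 2398 and 2928, a log2 fold change of 1.23 (standard error 0.13, edgeR adjusted p = 8.65e-06). Its gap between the groups was 1.89-fold and its rank 151 of 192. Actn1 had estimated counts that were not whole in each library, while those of Tcf7, Klf2 and S1pr1 were whole, and 2 antisense genes overlap its exons (Gm47766 by 363 bases and Gm47767 by 88), which counting without strand would not separate. The sources used here do not say how strand was counted.

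**Figure D1:**
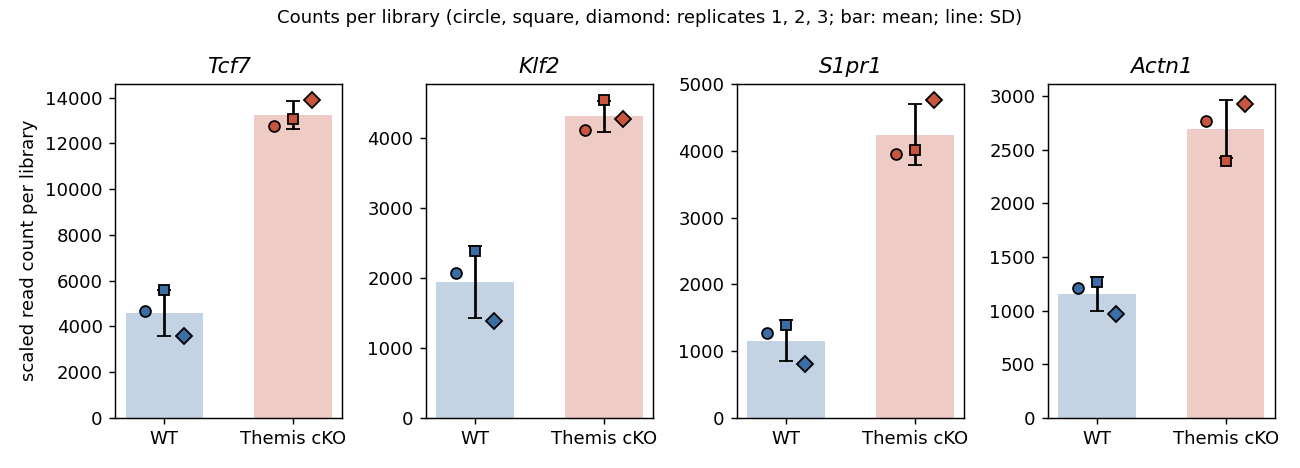
Scaled read counts of Tcf7, Klf2, S1pr1 and Actn1 in each library (y axis, from 0) for WT and Themis cKO (x axis), with bars at the mean, lines at 1 SD and points for replicates 1 to 3 (n = 3 per genotype). The cKO points lie above the WT points in each panel, and WT replicate 3 is the lowest point in each.

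Levels of different genes were compared per kilobase of merged exon length. In WT, Tcf7 stood at 1751 ± 381 scaled counts per kb, Klf2 at 1055 ± 280, S1pr1 at 379 ± 101 and Actn1 at 208 ± 28.5 (mean ± SD, n = 3). In cKO the order was the same, with 5049 ± 229 for Tcf7, 2338 ± 119 for Klf2, 1394 ± 149 for S1pr1 and 487.5 ± 49.1 for Actn1. Neighbours in this order did not overlap between libraries in either genotype. Tcf7 had the highest level per kb in both genotypes of the 190 higher genes with an exon length, and the largest rise per kb of the 774 tested genes with one, at 3298 scaled counts per kb. By that rise Klf2 ranked 5, S1pr1 ranked 8 and Actn1 ranked 17. By fold change the same 4 genes ranked from 45 to 167 of 192.

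**Figure D2:**
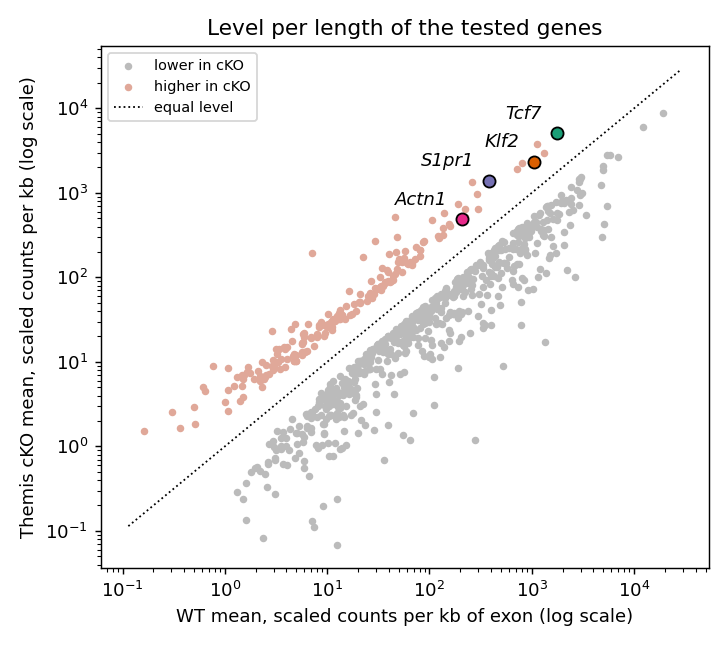
Mean scaled counts per kb of exon in Themis cKO (y axis) against WT (x axis), both on log scales, for tested genes with an exon length. Points above the dotted line of equal level are higher in cKO, and Tcf7 is at the upper end of that band, with 5049 against 1751.

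The ratio of 2 genes within a library does not depend on its depth or on any scaling, so 6 ratios among the 4 genes and 1 of S1pr1 to Cd69 were taken from the counts (log2 of count + 1). CD69, an early activation protein, binds S1PR1 and removes it from the cell surface. The log2 ratio of S1pr1 to Cd69 was -2.91, -2.81 and -3.45 in WT replicates 1 to 3. In cKO replicates 1 to 3 it was 0.75, 0.69 and 0.94. The ratio thus differed 14.4-fold between the genotypes, a log2 difference of 3.85 with a standard error of 0.21, and the groups did not overlap. No gene of the table had a log2 ratio of means between -0.94 and 1.06. A gene that rose over a gene that fell therefore had to differ. The direction of this ratio was set by that selection, and it is not independent evidence.

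S1pr1 stood higher relative to each of the other 3 genes in the cKO libraries than in the WT libraries. The log2 ratio of Klf2 to S1pr1 was 0.70, 0.79 and 0.77 in WT, and 0.06, 0.18 and -0.16 in cKO, lower by 1.65-fold. S1pr1 over Actn1 was 1.60-fold higher in cKO, and Tcf7 over S1pr1 was 1.28-fold lower, in both cases without overlap of the genotypes. Tcf7 over Klf2 was 1.29-fold higher in cKO and Tcf7 over Actn1 was 1.25-fold higher, again without overlap. The Klf2 to Actn1 ratio overlapped, with a log2 difference of -0.05 and a standard error of 0.17. The directions of these ratios restate the order of the genes by fold change. How often other pairs of genes higher in cKO separate in the same way was not tested. A two-sided exact permutation test gave p = 0.1 for each ratio that did not overlap and p = 1 for Klf2 to Actn1. With 3 libraries against 3 no smaller p than 0.1 can be reached, and adjusted over the 7 ratios it was 0.117 (exact permutation, Benjamini-Hochberg).

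WT replicate 3 was the lowest WT library and WT replicate 2 the highest for all 4 genes. WT replicate 2 exceeded replicate 3 by 1.73-fold for Klf2, 1.72-fold for S1pr1, 1.56-fold for Tcf7 and 1.31-fold for Actn1. Counting error at the lowest count of each gene was 1.64% to 3.45%, far below these differences. Over the 30 genes higher in cKO with a mean of at least 500 scaled counts the same ratio had a median of 1.33, and 20 of the 30 had this order of WT libraries. Over the 213 such genes lower in cKO the median was 0.96, and 40 had this order. Without WT replicate 3 the log2 fold changes were 1.40 for Tcf7, 0.98 for Klf2, 1.70 for S1pr1 and 1.15 for Actn1 (edgeR, adjusted p at most 1.9e-05).

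Each gene was set against the 452 other tested genes with a mean of at least 100 scaled counts, by the root mean square difference of log2 profiles centred on the gene's mean over the 6 libraries. Nearest to Tcf7 was Itgb7, the beta-7 integrin chain of gut-homing T cells (difference 0.062), followed by the sialyltransferase gene St3gal1 (0.10) and the chemokine receptor gene Ccr4 (0.12). Itgb7 had 2375, 2642 and 1694 scaled counts in WT and 5989, 6497 and 6214 in cKO, so it had the same low WT replicate 3. Nearest to Klf2 were Plxdc1 (0.051), the related factor gene Klf3 (0.11) and Smtn (0.11). Nearest to S1pr1 were Arl5c (0.16), Snai3 (0.18) and Timp2 (0.19), a looser match than for the other 3. Nearest to Actn1 were Atp1b1, a subunit of the sodium pump (0.021), Card19 (0.062) and Meis3 (0.090). Among the 4 genes themselves the closest pair was Klf2 and Actn1 (0.17) and the most distant Klf2 and S1pr1 (0.38). Of the 452 genes, Actn1 was at rank 21 from Klf2, and Klf2 at rank 29 from Actn1. Ranks of the 4 genes from each other ran from 5 (Tcf7 from S1pr1) to 67 (S1pr1 from Actn1). These are descriptions over 6 libraries, dominated by the difference between genotypes.

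**Figure D3:**
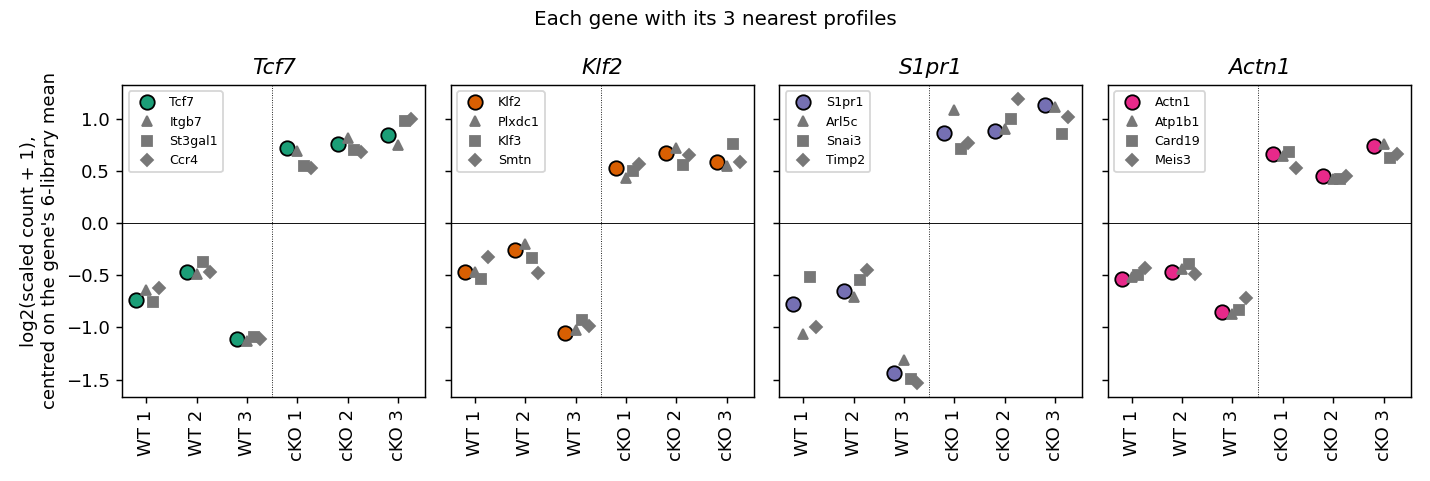
Log2(scaled count + 1) of each gene and its 3 nearest profiles in the 6 libraries (x axis), centred on the gene's own mean (y axis, log2 units). WT replicate 3 is the lowest library for each of the 4 genes, and the 3 neighbours of Actn1 lie closer to it than those of S1pr1 do to S1pr1.

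The list of naive and central memory genes had 20 entries, of which 5 were tested and 5 rose, the 4 genes and Igfbp4, a binding protein of insulin-like growth factors. Igfbp4 had 944, 1030 and 519 scaled counts in WT and 2564, 3861 and 3484 in cKO, a log2 fold change of 1.99. Listed genes that the table does not hold were not analysed here. Of 12 listed targets of FOXO1 and KLF2, 5 were in the table, and besides Tcf7, Klf2 and S1pr1 these were Itgb7, which rose (1.48), and Cdkn1a, the cell cycle inhibitor p21, which fell by 2.47 on the log2 scale.

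Of 19 listed quiescence genes, 3 were in the table, and they were the KLF family members Klf2, Klf3 and Klf4. Klf3, a repressor of the family, had 837, 962 and 636 scaled counts in WT and 1712, 1792 and 2050 in cKO, a log2 fold change of 1.19. Klf4, which restrains T cell proliferation, fell from 351 ± 39.0 to 85.0 ± 5.81 scaled counts (-2.05). These 3 listed KLF genes thus did not move one way. Klf8, Klf9 and Klf11 are in the table but not in the list, and were lower in cKO at equal depth. Their means went from 26.5 to 11.9, 35.3 to 17.6 and 74.7 to 37.0 scaled counts per kb. Scalings that centre the table on itself raised the median log2 fold change by 1.31, more than each of these falls. The direction of Klf8, Klf9 and Klf11 therefore rests on taking the genotypes at equal depth.

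Of 21 listed genes of sphingosine-1-phosphate and egress, 4 were in the table. S1pr1 and the lipid phosphatase gene Plpp3 rose (1.12 for Plpp3, at 19.2 and 41.6 mean scaled counts), and 2 genes whose products oppose egress or chemotaxis fell. Cd69 fell from 9366 ± 484 to 2440 ± 77.2 scaled counts (-1.94), and Rgs1, a brake on G protein signalling by such receptors, from 537 ± 16.1 to 110.3 ± 16.3 (-2.28). The call of Plpp3 ended when the adjustment was widened to 16996 genes, the number implied by the deposited p-values and q-values (edgeR, adjusted p = 0.158, against 0.000106 to 0.158 over its alternatives).

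Of 17 listed genes of TCF-1, LEF1 and Wnt signalling, Tcf7 and Myc were in the table. Myc fell from 15780 ± 549 to 7540 ± 343 scaled counts (-1.07), a direction that turned under the scalings that centre the table on itself. Of 12 genes listed as effector factors opposed to TCF-1, 5 were in the table and 5 fell. Irf4, an activation-induced factor, fell from 7566 ± 689 to 1469 ± 144 scaled counts, a log2 change of -2.36. Nfil3 (-2.14) and Batf3 (-2.82) also fell, as did Bhlhe40 (-1.02), whose direction turned under the table-centred scalings. Batf3 was at low counts, 36.1 ± 7.68 scaled counts in WT and 5.01 ± 2.68 in cKO. The fifth, Prdm1, named because the count is small, had -1.14, and its direction turned under the same scalings.

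Of 26 listed alpha-actinins, their partners and adhesion genes, 5 were in the table and 5 rose. Beside Actn1 these were Actn2, a second alpha-actinin (1.43), Itgb7 (1.48), the integrin chain gene Itga4, the partner of beta-7 in a gut-homing integrin (1.07), and Pdlim4, of a family that binds alpha-actinin. Pdlim4 had 12.7, 28.5 and 13.4 scaled counts in WT and 376, 591 and 529 in cKO, a log2 fold change of 4.76. Set against these lists, 24.2% of all tested genes were higher and 75.8% lower.

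**Figure D4:**
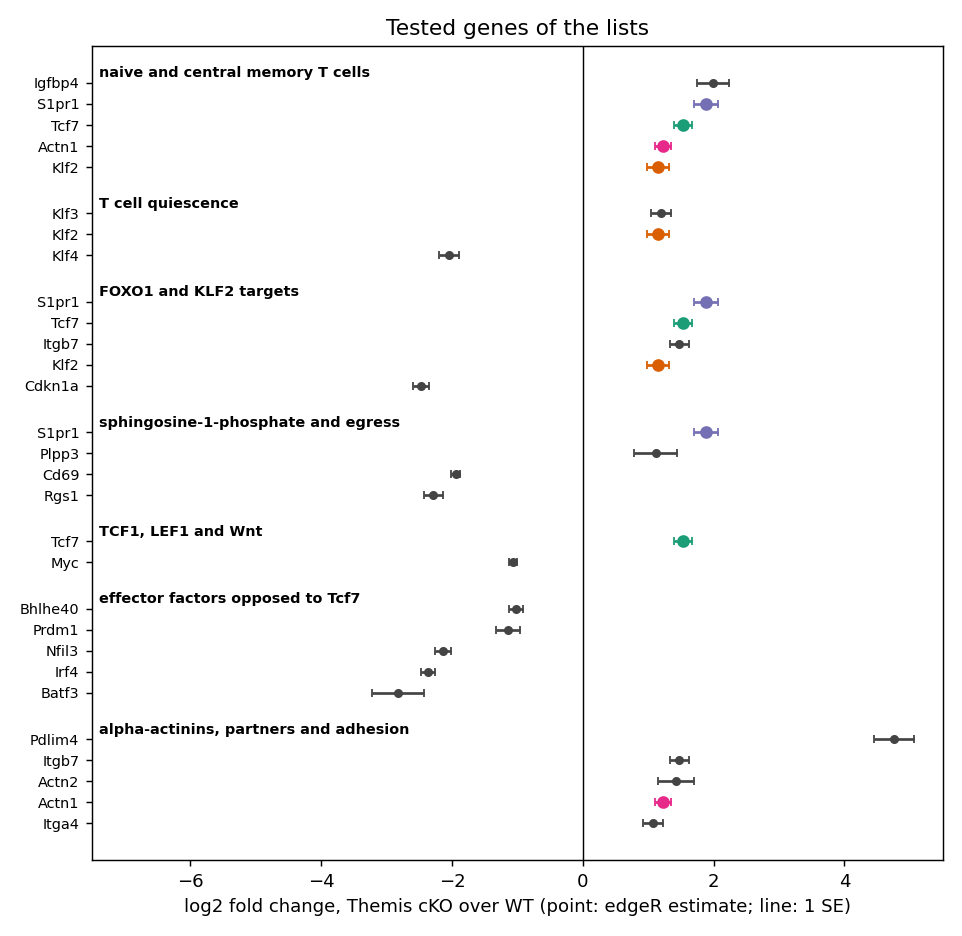
Log2 fold change of cKO over WT (x axis; points with lines of 1 standard error, edgeR) for the tested genes of each list (y axis), with Tcf7, Klf2, S1pr1 and Actn1 in colour. The effector factors lie to the left of 0, the naive and memory genes and the actinin group to the right, and the listed KLF genes on both sides. Under scalings that centre the table on itself, Myc, Bhlhe40 and Prdm1 turn to the right of 0.

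Summed markers of other cell types that can also express Klf2, S1pr1 or Tcf7 moved with the genotypes. Of 11 B cell markers, 2 were in the table (Cd79b and Ms4a1), and their summed scaled counts were 49.2 to 73.0 in WT and 83.6 to 230.1 in cKO. Ms4a1 alone overlapped between genotypes, with 27.8 scaled counts in WT replicate 3 and 16.1 in cKO replicate 1. Of 11 NK cell markers, 5 were in the table, with sums of 423 to 703 in WT and 1150 to 2054 in cKO. Of 9 gamma-delta T cell markers, 2 matched by symbol (Sox13 and Blk), with sums of 29.5 to 57.2 in WT and 76.5 to 165 in cKO. The listed Scart1 and Scart2 are held under the older symbols Cd163l1 and 5830411N06Rik, and these sums leave them out. In scaled counts per kb, Cd163l1 had 44.2 to 50.3 in WT and 114 to 354 in cKO. For 5830411N06Rik the ranges were 38.9 to 57.3 in WT and 311 to 809.5 in cKO.

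The CD4 and myeloid marker lists each held genes that moved in opposite directions. Of 7 markers of CD4 and regulatory T cells, 3 were in the table, with sums of 880 to 995 in WT and 306 to 527 in cKO. Ctla4 and Ikzf2 were lower (-1.43 and -1.09), while Tnfrsf25 rose from 25.2 ± 7.02 to 58.8 ± 25.7 scaled counts (1.23). Of 12 myeloid and dendritic markers, 2 were in the table, with sums of 386 to 492.5 and 165 to 271. Mpeg1 fell from 339 to 421 scaled counts in WT to 44.3 to 62.6 in cKO (-2.91), while Itgax rose from 64.1 ± 14.7 to 155 ± 64.2 (1.28). Both sums turned to higher in cKO under TMM scaling over the table, as did Ikzf2, and the call for Ctla4 ended there (-0.13). Adjusted over 16996 genes, Tnfrsf25 and Itgax did not pass (edgeR adjusted p = 0.195 and 0.0508). Neither did the B cell marker Ms4a1 or the gamma-delta markers Sox13 and Blk (edgeR adjusted p = 0.529, 0.0815 and 0.0686). The B cell marker Cd79b (edgeR adjusted p = 0.02) and all 5 NK cell markers (edgeR adjusted p at most 0.0192) did pass. In the authors' deposited table the 5 NK cell markers also passed 0.05 (q at most 2.83e-05), as did Sox13, Itgax and Tnfrsf25, while Cd79b, Ms4a1 and Blk did not. Sums over 2 of 13 endothelial and stromal markers were 29.5 to 57.6 and 4.03 to 19.2, lower also under TMM. The stress and RNA quality list, 7 of whose 11 genes the table holds, had sums of 7026 to 7126 in WT and 2853 to 3158 in cKO, a direction that TMM also turned. No marker in the table was at 0 in any library. The part of other cells and of RNA quality in the rise of the 4 genes was not tested.

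The authors' deposited table gives smaller log2 values, 0.68 for Tcf7, 0.49 for Klf2, 0.87 for S1pr1 and 0.58 for Actn1. Its q-values for these genes are 0.456, 0.553, 0.42 and 0.449, so 0 of the 4 passed 0.05 there, with p-values of 0.165, 0.229, 0.144 and 0.161. Of all 854 genes in the authors' deposited table, a share of 67.6% passed that limit, as did 51% of the 192 tested genes higher in cKO and 40% of the 20 of these with a mean of at least 1000 scaled counts. The deposited log2 value was 43.1% to 46.8% of the value from the counts for the 4 genes, against a median of 82.1% over the 794 genes, and 44 genes in all were at or below 46.8%. Refitting the 6 columns in DESeq2 with a prior on fold changes gave 1.52, 1.14, 1.87 and 1.23 for Tcf7, Klf2, S1pr1 and Actn1, close to the edgeR values and not to the deposited ones. That prior was estimated from the 794 genes of this selected table alone. The refit therefore cannot show what a prior over the 16996 genes implied by the deposited p-values and q-values would give. Of the 12 nearest profiles, 4 passed 0.05 in the authors' deposited table, Card19 (0.82, q = 0.00659), Meis3 (0.71, q = 0.0111), Plxdc1 (0.75, q = 0.0333) and Smtn (0.73, q = 0.0359). The other 8 did not, among them Itgb7 (0.88, q = 0.143) and Klf3 (0.48, q = 0.588) in the authors' deposited table. What set the deposited values apart was not tested.

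**Figure D5:**
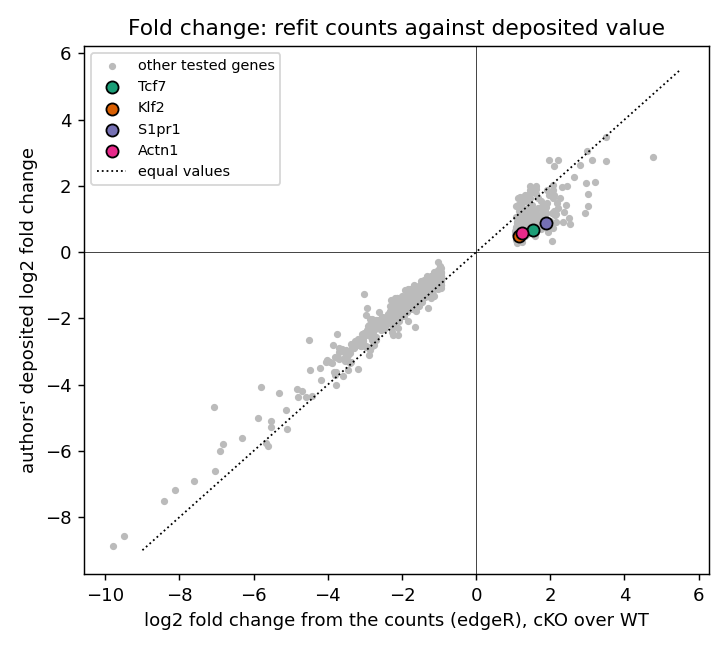
The authors' deposited log2 fold change (y axis) against the edgeR log2 fold change from the deposited counts (x axis), cKO over WT, for the 794 tested genes, with a dotted line of equal values. Tcf7, Klf2, S1pr1 and Actn1 lie below the line, at 0.49 to 0.87 where the counts give 1.15 to 1.88.

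Fold changes rest on taking the genotypes at equal depth. Scalings that centre the table on itself raised the median log2 fold change by 1.31 and gave the 4 genes 2.44 to 3.18 (edgeR), while the ratios between genes do not depend on that choice.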

How the data were processed

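The 6 libraries, 3 WT and 3 Themis cKO, were grouped by their titles. The submitters' processing notes name RSEM 1.2.12, HISAT2 2.0.4, DESeq2 1.4.5 and Bowtie2 2.2.5 with the genome GRCm38.p6, without role or order. The authors deposited estimated counts (66.1% of values whole) for 854 genes, and, per the file headers, each gene's log2 fold change with its p-value and q-value. The rule that chose these genes is not stated in the sources used here.

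Counts were rounded and fitted with edgeR 4.0.16 in R 4.3.3 (genotype only, smallest count 10, 794 genes tested, 60 left out, Benjamini-Hochberg at 0.05). Scaled counts are counts divided by library factors of 0.944 to 1.04, found within a genotype as the median of ratios over genes above 10 counts, with genotypes at equal depth. Standard errors were derived from the log2 fold change and the F statistic. The fit was tested on simulated data. DESeq2 1.42.0 and limma 3.58.1 gave alternatives. The 16996 genes implied by the deposited p-values and q-values give whole ranks within 0.02 for 71.1% of 426 genes. Exon lengths are from GENCODE, matched by symbol for 774 tested genes. Ratios used a pseudocount of 1. Replicates of a genotype differed by more than sampling noise (chi-square per degree of freedom 6.34 to 19.7, the largest between WT replicates 2 and 3). No library was therefore taken as a copy of another, and all 6 were kept.

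Named genes are Themis, the 4 members, up to 4 members per pathway list with the smallest p, and the 3 nearest profiles of each member. Actn2, Prdm1 and the marker genes are named beyond this rule, after their values were seen. One listed marker gene is not reported here. Members and lists were chosen with earlier results of these data known. Tables and plots were made in Python 3.11.15 with scipy 1.17.1, numpy 2.4.6, matplotlib 3.10.9 and pandas 2.3.3.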

Additional observations from a re-analysis of the deposited data

How the results depend on the processing

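Tcf7, Klf2, S1pr1 and Actn1 stayed higher in cKO and past the threshold under each of 16 alternatives (adjusted p at most 0.00249, edgeR, DESeq2 or limma), and their lowest values were those without WT replicate 3 given above. Leaving out 1 library gave log2 fold changes of 1.40 to 1.70 for Tcf7, 0.98 to 1.33 for Klf2, 1.70 to 2.04 for S1pr1 and 1.15 to 1.32 for Actn1. The number of genes lower in cKO was 602, and 210 with TMM or 211 with DESeq2 size factors over the table. Under both of these scalings the log2 values turned to 0.23 for Myc, 0.28 and 0.27 for Bhlhe40, 0.16 for Prdm1, 0.21 for Ikzf2, 0.29 for Junb, 0.30 for Gadd45a and 0.061 and 0.059 for Gadd45b, since they shift all genes upward alike. The Klf2 to Actn1 difference ranged from -0.17 to 0.043 when 1 library was left out. The labels do not say whether replicate numbers pair the libraries, and correlations of deviations did not show it (-0.0591, -0.0564 and -0.156 for numbers 1 to 3). Deviations were centred on 3 libraries per genotype, so this check cannot exclude pairing. With replicate number as a block the log2 fold changes were 1.55, 1.18, 1.91 and 1.23 for Tcf7, Klf2, S1pr1 and Actn1 (edgeR), with 191 genes higher and 602 lower, and the block ended no call of these 4. Unknown sequencing depth limits all fold changes, but not the ratios within libraries.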
